A study of Homo sapiens with 145 samples.

Results

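The mitochondrial ribosomal protein genes are the human genes with symbols MRPL or MRPS followed by digits, optionally with a closing A, B or C, and 75 of the 12070 genes measured above background were of this kind. A gene entered when a probe set with its symbol alone had a log2 value of at least 4 in at least 5 arrays, and the probe set with the highest mean stood for the gene. All 75 such genes on the array passed this limit, and 77 genes of RefSeq fit the symbol rule (MRPL53 and MRPS17 had no probe set of their own). Of the members, 50 build the large subunit, which here includes MRPS30 and MRPS18A because both proteins sit there, and 25 build the small subunit.

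The cells were HT-1080, an established human fibrosarcoma line, so every group is a single line and not a tissue. Exposure lasted 24 h, to etoposide (ETP), which poisons topoisomerase II, at 0.003, 0.01, 0.03, 0.1, 0.3, 1 or 3 µM, to methyl methanesulfonate (MMS), an agent that alkylates DNA, at 1, 3, 10, 30, 100, 300 or 500 µM, or to quercetin (QUE), a plant flavonol, at 1, 3, 10, 30, 60, 80 or 100 µM. Each chemical had its own vehicle group of cells that received 0.1% DMSO, which the dosed cells received too. Of 145 arrays, 129 were used. The 16 ETP and QUE arrays numbered 2 were left out because, over 12070 genes, the ETP 3 µM array numbered 2 had a response correlating at 0.30 with that of the other ETP arrays and at 0.90 with that of QUE 100 µM, and the QUE 100 µM array numbered 2 at 0.39 with the other QUE arrays and at 0.89 with ETP 3 µM. That left 5 replicates in each ETP and QUE group and 6 in each MMS group, except 5 at MMS 500 µM. Whether replicate numbers stand for separate cultures is not given in the labels, so p-values measure the spread between these samples, which may be technical.

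All 5 mesenchymal markers fixed for the check (VIM, CD44, LGALS1, S100A6, FN1) had vehicle means between 12.07 and 13.27 on the log2 scale. None of the 4 epithelial markers (2.46 to 3.00) and none of the 3 measured blood markers (2.54 to 3.52) reached the limit of 4, and of the liver markers APOA1 passed the filter with vehicle means up to 3.80. The chemicals acted at their highest doses: CDKN1A, a p53 target that halts the cell cycle, was higher by a log2 difference of 1.83 with ETP, 1.42 with MMS and 1.29 with QUE. The spread between replicates was small for the members, with a median SD over members of 0.10 for ETP and 0.12 for both MMS and QUE on the log2 scale. In bulk RNA such as this, fewer cells and less RNA per cell cannot be told apart.

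Mitochondria keep a ribosome of their own, which makes the few proteins encoded in mitochondrial DNA, all of them subunits of the oxidative phosphorylation complexes. Its RNAs come from mitochondrial DNA, while its proteins are encoded in the nucleus, made in the cytosol and imported, so that the 2 genomes must be expressed in step. Some of the proteins have counterparts in the bacterial ribosome and others are found in mitochondria only. By the list used here, 45 members have a bacterial counterpart and 30 do not.

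Promoter windows are shown for the 5 members on which the results turn: MRPL49 rose with all 3 chemicals, MRPL30 rose most with MMS, MRPL12 fell with both MMS and QUE, MRPL20 fell with QUE, and MRPL38 rose with MMS and fell with QUE. Each is a RefSeq window (GRCh38.p14) of 250 bases before to 50 after the annotated start, written 5′ to 3′ along the gene. Capitals mark matches, on either strand, to the short motifs of YY1 (AAGATGGC) and of ETS factors (CCGGAAG). The windows lie at chr11:65122071-65122370 on the plus strand for MRPL49, chr2:99180934-99181233 on the plus strand for MRPL30, chr17:81703117-81703416 on the plus strand for MRPL12, chr1:1407244-1407543 on the minus strand for MRPL20 and chr17:75904835-75905134 on the minus strand for MRPL38. RefSeq lists 2 windows for MRPL49, and the one shown is the downstream of the pair, chosen because it holds a motif match; the other 4 genes have 1 window each.
MRPL49: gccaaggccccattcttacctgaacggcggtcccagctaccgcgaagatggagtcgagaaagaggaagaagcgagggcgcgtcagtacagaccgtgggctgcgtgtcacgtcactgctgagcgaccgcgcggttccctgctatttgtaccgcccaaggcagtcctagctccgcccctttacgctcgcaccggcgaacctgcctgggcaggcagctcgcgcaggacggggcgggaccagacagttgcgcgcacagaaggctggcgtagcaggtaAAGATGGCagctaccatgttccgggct
MRPL30: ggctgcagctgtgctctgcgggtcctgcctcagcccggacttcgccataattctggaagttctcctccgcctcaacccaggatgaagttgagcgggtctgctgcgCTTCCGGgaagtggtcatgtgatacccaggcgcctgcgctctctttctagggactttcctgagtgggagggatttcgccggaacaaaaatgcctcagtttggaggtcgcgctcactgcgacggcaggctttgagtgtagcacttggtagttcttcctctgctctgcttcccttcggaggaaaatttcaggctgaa
MRPL12: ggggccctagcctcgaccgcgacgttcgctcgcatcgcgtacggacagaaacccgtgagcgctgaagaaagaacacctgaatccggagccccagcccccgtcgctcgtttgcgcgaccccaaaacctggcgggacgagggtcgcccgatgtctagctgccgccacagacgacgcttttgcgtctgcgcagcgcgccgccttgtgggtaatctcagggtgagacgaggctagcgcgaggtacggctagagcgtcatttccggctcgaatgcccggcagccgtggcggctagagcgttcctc
MRPL20: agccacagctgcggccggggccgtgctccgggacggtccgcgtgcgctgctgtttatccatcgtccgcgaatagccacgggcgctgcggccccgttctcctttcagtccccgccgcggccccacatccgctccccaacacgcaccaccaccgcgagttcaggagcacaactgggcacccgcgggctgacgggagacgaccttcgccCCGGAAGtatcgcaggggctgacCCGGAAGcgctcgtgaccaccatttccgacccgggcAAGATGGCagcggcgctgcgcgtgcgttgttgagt
MRPL38: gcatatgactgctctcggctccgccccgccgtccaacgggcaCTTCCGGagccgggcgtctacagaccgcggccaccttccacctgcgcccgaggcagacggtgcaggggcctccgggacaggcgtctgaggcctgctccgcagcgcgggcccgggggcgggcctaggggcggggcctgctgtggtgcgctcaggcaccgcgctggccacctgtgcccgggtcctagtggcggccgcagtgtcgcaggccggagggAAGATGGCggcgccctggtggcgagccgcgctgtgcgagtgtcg

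The table of windows held 67 of the 75 members. The YY1 motif was found in 21 of them (31.3%), against 6.59% of the 9902 measured genes with a window and 3.52% of all 27305 genes with one, and 16 of its 24 matches lay after the start. The ETS motif was found in 29 members (43.3%), against 22.6% of measured genes and 12.2% of all genes. The NRF1 motif GCGCATGC was in 6 members (8.96%, against 6.52% of measured genes) and the E-box CACGTG in 9 (13.4%, against 12.7%). The CCAAT box was less common among the members, in 22 of 67 (32.8%, against 43.6% of measured genes). MRPL12 held none of the 5 motifs in its window, and a match or its absence is a description of these letters and shows no binding.

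Dosed and vehicle arrays of the same chemical were compared by limma over all 12070 genes. A gene is said to have passed at a Benjamini-Hochberg adjusted p under 0.05, and to have been called, or to have risen or fallen, when it also changed at least 1.5-fold, a log2 difference of 0.585. Across the 21 dose comparisons, 21 members were called at least once and 54 never were. Passing without the limit on fold was far more common, in 71 members, and MRPL35, MRPL51, MRPS10 and MRPS25 did not pass at any dose. The shares of all genes called or passing at any dose were not counted. At MMS 500 µM alone 34.6% of all genes were called, and 33.9% passed higher and 27.3% lower. Over all doses of a chemical, limma's moderated F-test passed 28 of 75 members for ETP, 55 for MMS and 39 for QUE, beside 38.3%, 59.3% and 56.8% of all genes.

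The median change of the members was positive at MMS 300 and 500 µM and negative at QUE 30 to 100 µM. With MMS it was 0.19 at 300 µM and 0.24 at 500 µM on the log2 scale (all genes at 500 µM: 0.05). With QUE it was -0.20 at 30 µM and -0.08 at 100 µM (all genes at 100 µM: 0.00), and with ETP 3 µM it was -0.03 (all genes: 0.01). The median level of the 75 members per array lay at 9.05 to 9.29 in the 6 MMS vehicle arrays and at 9.23 to 9.42 in the 5 arrays at 500 µM, with some overlap. At QUE 30 µM it was 9.27 to 9.51 against 9.44 to 9.71 in the vehicle arrays, and at ETP 3 µM 9.49 to 9.88 against 9.62 to 9.79, so those groups overlapped as well. Most members stayed within 1.5-fold: 74 of 75 at ETP 3 µM (all genes: 86.5%), 60 at MMS 500 µM (65.1%) and 69 at QUE 100 µM (71.0%).

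**Figure D1:**
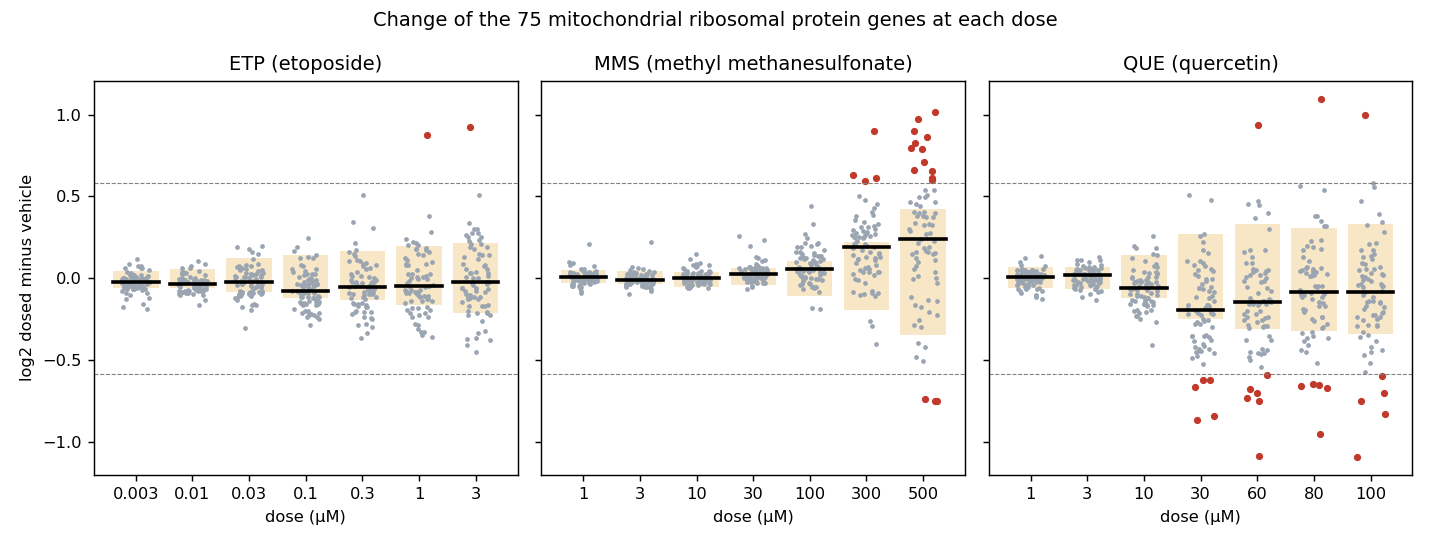
Log2 change of each of the 75 members against the vehicle of its chemical (y axis) at each of the 7 doses in µM (x axis), with 1 panel per chemical. Points are members (red where called), the black bar is the member median, the shaded band is the interquartile range of all 12070 genes and dashed lines mark a 1.5-fold change. The member median is 0.24 at MMS 500 µM and -0.20 at QUE 30 µM.

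At the lowest doses no member passed in limma: none at ETP 0.003, 0.01 and 0.03 µM, where 0%, 0% and 2.57% of all genes passed in either direction, none at MMS 1, 3, 10 and 30 µM, where 0% of all genes passed at each dose, and none at QUE 1, 3 and 10 µM, where 0.0331%, 0.141% and 3.9% did. At an unadjusted p under 0.05 there were 1, 2 and 7 members in those ETP groups, 0, 0, 0 and 2 in those MMS groups and 1, 1 and 8 in those QUE groups. Over all 12070 genes the unadjusted counts were 118, 208 and 1950 for ETP, 32, 37, 59 and 127 for MMS and 243, 350 and 1873 for QUE. Same-numbered dosed and vehicle arrays deviated together at all ETP doses, at MMS 1 to 300 µM and at QUE 1 to 30 µM, so a fit blocked on the replicate number (the replicate block) also applies there. With the replicate block 6 members passed higher and 5 lower at ETP 0.03 µM, beside 13.3% and 10.2% of all genes in that fit. At QUE 10 µM 1 passed higher and 3 lower, beside 6.17% and 4.14%. No change of 1.5-fold was called in these groups in either fit.

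MRPL49, a protein of the mitochondrial large subunit with no bacterial counterpart, was the only member called in all 3 chemicals, and it rose in each. Its log2 level in the ETP vehicle arrays was 8.87, 8.81, 8.64, 8.83 and 8.67, and in the ETP 3 µM arrays 9.74, 9.34, 9.64, 9.81 and 9.92. Every dosed array lay above every vehicle array, and the rise was 0.93 (SE 0.108, n = 5 and 5, limma adjusted p = 1.04e-08). It was already 0.51 at ETP 0.3 µM and 0.88 at 1 µM. In the 6 MMS vehicle arrays the lowest, median and highest levels were 7.94, 8.33 and 8.54, and in the 5 arrays at 500 µM the levels were 9.05, 9.39, 9.49, 9.36 and 9.09. That is a rise of 0.98 (SE 0.118, limma adjusted p = 1.24e-09), after 0.44 at 100 µM and 0.90 at 300 µM. In the QUE vehicle arrays the levels were 8.67, 8.31, 8.34, 8.20 and 8.34, and at 100 µM 9.35, 9.47, 9.38, 9.23 and 9.43. With QUE at 30, 60, 80 and 100 µM it rose by 0.48, 0.94, 1.10 and 1.00 (at 100 µM SE 0.0859, limma adjusted p = 1.96e-11). From ETP 0.3 µM, MMS 100 µM and QUE 30 µM upward no dosed array overlapped the vehicle arrays. MRPL49 was the single member that passed at MMS 100 µM, where 1.67% of all genes passed higher, and with the replicate block 12 members passed higher and 2 lower at that dose, as did 1053 and 1174 of all 12070 genes. The difference in its change between MMS and QUE at their highest doses was -0.02 (SE 0.15) on the log2 scale. Its window is the one shown above with the YY1 motif at 23 bases after the start, and 1 probe set on the array stood for it.

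**Figure D2:**
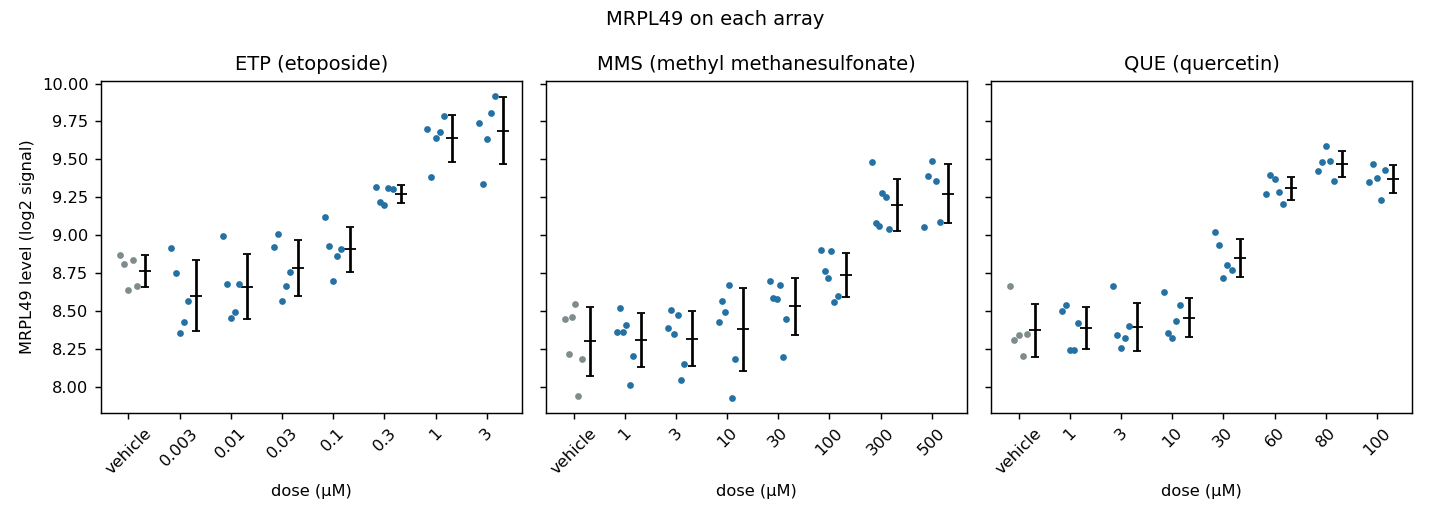
Log2 level of MRPL49 in every array used (y axis) by dose in µM (x axis), with 1 panel per chemical and the vehicle group at the left. Points are replicates, and the levels rise from about the vehicle range at low doses to 9.23 to 9.47 at QUE 100 µM and 9.34 to 9.92 at ETP 3 µM.

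MMS raised the largest number of members. At 300 µM, 4 members were called higher and 0 lower, while 4.46% of all genes were called higher and 7.75% lower. These 4 were MRPL49 (0.90), MRPL38 (0.63), MRPL30 (0.61) and MRPS11 (0.60). By the adjusted p alone 35 members passed higher and 3 lower, beside 19.6% and 16.9% of all genes. With the replicate block 48 passed higher and 4 lower, beside 28.8% and 23.9% of all genes in that fit. Without the 300 µM array numbered 6, MRPL30 (0.57) and MRPS11 (0.58) fell below the 1.5-fold limit and 2 members remained called. MRPL30 was also not called without the array numbered 5 (0.51), nor MRPS11 without the array numbered 2 (0.58), the array numbered 3 (0.58) or the vehicle array numbered 5 (0.52), and MRPL38 was not called without the vehicle array numbered 2 (0.58).

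At MMS 500 µM, 12 members were called higher and 3 lower, beside 17.7% and 16.9% of all genes, so the share called higher (12 of 75) was near the background and the share called lower below it. By the adjusted p alone 43 members passed higher and 14 lower, beside 33.9% and 27.3% of all genes. The large subunit had 28 members passing higher and 10 lower out of 50, with 6 and 3 called. The small subunit had 15 higher and 4 lower out of 25, with 6 and 0 called by limma.

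Among the large subunit proteins, MRPL30, which has a bacterial counterpart, rose most. Its log2 levels in the 6 vehicle arrays ran from 9.35 through a median of 9.45 to 9.48, and in the 5 dosed arrays they were 10.42, 10.35, 10.35, 10.71 and 10.44. The groups did not overlap, and the change was 1.02 (SE 0.0785, limma adjusted p = 4.25e-15). MRPL10, which anchors the stalk to the large subunit, rose by 0.87 (SE 0.0981), from a vehicle median of 9.38 (lowest 9.16, highest 9.52) to 10.29, 10.03, 10.09, 10.42 and 10.24. MRPL44, a large subunit protein with a fold like ribonuclease III, rose by 0.79 (SE 0.0898), and MRPS30, of the central protuberance, by 0.71 (SE 0.0782). Neither overlapped its vehicle arrays. MRPL2, of the peptidyl transferase region, was also called higher.

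In the small subunit, MRPS2 rose from a vehicle median of 8.09 (lowest 7.91, highest 8.21) to 8.81, 9.12, 9.05, 9.08 and 8.88 at MMS 500 µM. That change of 0.90 (SE 0.0664, limma adjusted p = 9.83e-16) separated every dosed array from every vehicle array. MRPS11, a protein of the platform where messenger RNA leaves, rose by 0.82 (SE 0.103). The vehicle array numbered 5 was low for it at 8.34, against 8.74 to 8.88 in the others, and the dosed array numbered 5 was the lowest of its group at 9.19. MRPS12, which lines the decoding centre, rose by 0.80 (SE 0.125), from a vehicle median of 9.23 (lowest 8.73, again number 5, highest 9.29) to 9.90, 10.00, 10.10, 9.86 and 9.88. MRPS31, MRPS35 and MRPS18C were the other called small subunit members, with MRPS18C at 0.60 (SE 0.0853) close to the limit. MRPS18C was not called without the 500 µM array numbered 6 (0.55), the vehicle array numbered 4 (0.56) or the vehicle array numbered 5 (0.56).

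MRPL11, MRPL12 and MRPL48 fell with MMS 500 µM. MRPL12, the stalk protein that recruits translation factors and also binds the mitochondrial RNA polymerase, went from a vehicle median of 9.30 (lowest 9.13, highest 9.45) to 8.45, 8.91, 8.50, 8.28 and 8.54. It fell by 0.75 on the log2 scale (SE 0.0828, limma adjusted p = 1.14e-10), and all dosed arrays lay below all vehicle arrays. MRPL11, at the base of the stalk, fell by 0.75 (SE 0.111), from a vehicle median of 7.23 (lowest 7.07, highest 7.41) to 6.13, 6.49, 6.55, 6.64 and 6.65. MRPL48, of the central protuberance, fell by 0.74 (SE 0.0789), also without overlap. The 3 stalk proteins were thus all called at this dose, MRPL10 higher and MRPL11 and MRPL12 lower.

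The other site groups were mixed at MMS 500 µM. Of the 4 peptidyl transferase region proteins 3 passed higher and 0 lower, with MRPL3 at 0.02 (SE 0.0403) as the fourth. Of the 7 around the exit tunnel 4 passed higher and 2 lower, among them MRPL45, which ties the ribosome to the inner membrane, at 0.51 (SE 0.0717). The 3 paralogs MRPS18A, MRPS18B and MRPS18C, which descend from the same bacterial protein and occupy different places, all passed higher, at 0.37 (SE 0.107), 0.24 (SE 0.0731) and 0.60 (SE 0.0853). With ETP 3 µM MRPS18A alone of the 3 passed (0.23), and with QUE 100 µM none of the 3 did (0.06, -0.01 and 0.07). Members with a bacterial counterpart had a median change of 0.23 at MMS 500 µM and the others 0.31.

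**Figure D3:**
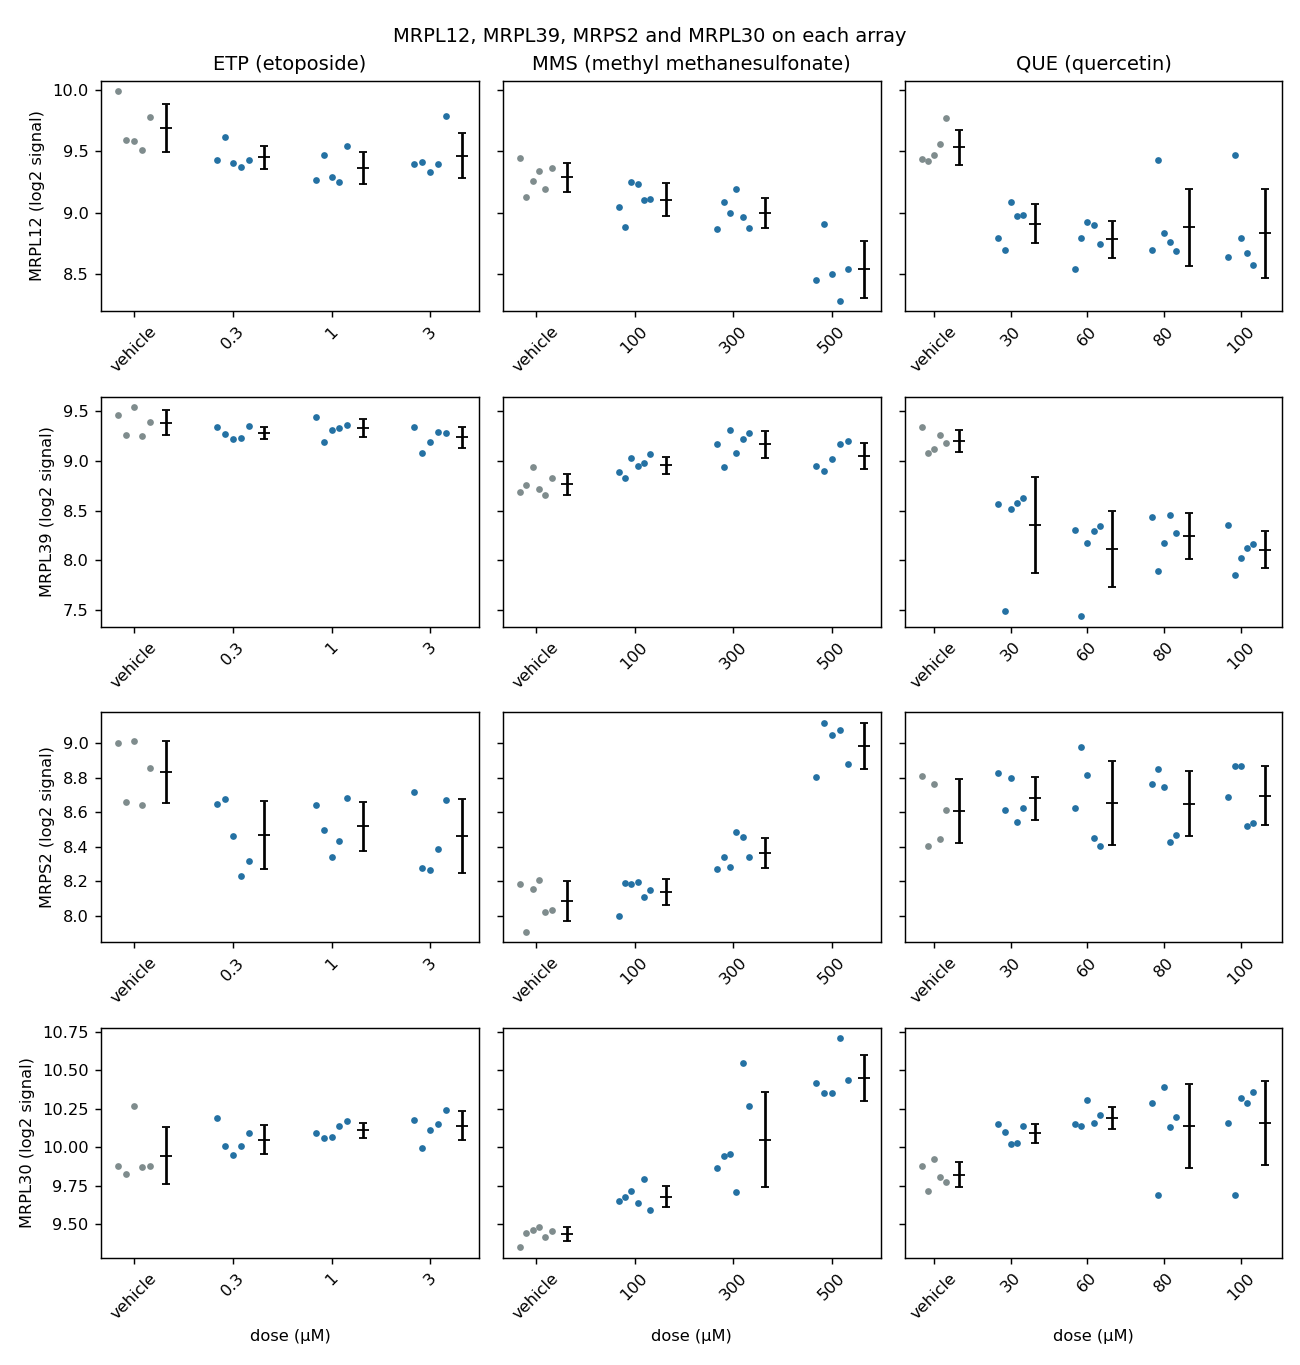
Log2 levels of MRPL12, MRPL39, MRPS2 and MRPL30 (y axis) in every array used of the groups drawn (x axis). The groups drawn include the vehicle and the highest dose of each chemical, with the mean and SD of each group beside the points. MRPL12 is low at MMS 500 µM (8.28 to 8.91), MRPL39 is low at QUE 100 µM (7.85 to 8.36) and MRPL30 is high at MMS 500 µM (10.35 to 10.71).

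With QUE the members that were called, other than MRPL49, all fell. At 30 µM 5 members were called lower and 0 higher, beside 8.64% and 8.4% of all genes: MRPL54 (-0.87), MRPL39 (-0.84), MRPL23 (-0.67), MRPL12 (-0.63) and MRPL20 (-0.62). By the adjusted p alone 33 passed lower and 3 higher, beside 18% and 18% of all genes, and with the replicate block 41 lower and 5 higher, beside 23.4% and 23.2%. The 50 large subunit members had 25 passing lower and 2 higher, and the 25 small subunit members 8 and 1. Without the 30 µM array numbered 3 the count called lower was 3, since MRPL12 (-0.57) and MRPL20 (-0.58) no longer reached the limit. MRPL12 was also lost without the vehicle array numbered 6 (-0.57) and MRPL20 without the vehicle array numbered 1 (-0.57).

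At QUE 60 µM 6 members were called lower and 1 higher, beside 12.7% and 12.7% of all genes. At 80 µM the counts were 5 and 1 (13.1% and 11.4% of all genes), and at 100 µM 5 and 1 (14.5% and 13.1%). By the adjusted p alone 25 passed lower and 10 higher at 100 µM, beside 24.7% and 25.8% of all genes. With each array centred on its median, 4 members were called lower and 2 higher at 100 µM. The shares called were thus below those of all genes at each of these doses. Without the 100 µM array numbered 3, the count that passed higher was 6, and 1 to 3 members were called higher when single arrays were left out: 3 without the dosed array numbered 1 or the vehicle array numbered 4, and 2 without the dosed array numbered 3 or the vehicle arrays numbered 3 or 6.

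MRPL39, a large subunit protein related to threonyl-tRNA synthetase, fell most. Its levels in the QUE vehicle arrays were 9.35, 9.08, 9.12, 9.27 and 9.19 on the log2 scale. At 30 µM they were 8.57, 7.49, 8.52, 8.57 and 8.63, and at 100 µM 8.36, 7.85, 8.02, 8.13 and 8.17. All dosed arrays were below all vehicle arrays, and the array numbered 3 was the lowest at both doses. The change at 30, 60, 80 and 100 µM was -0.84, -1.09, -0.95 and -1.09 (at 100 µM SE 0.166, limma adjusted p = 1.42e-06), and it was -1.03 at 100 µM without the array numbered 3. With MMS 500 µM MRPL39 was at 0.29 (SE 0.0721), and with ETP 3 µM at -0.14 (SE 0.0606).

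MRPL20, whose bacterial counterpart binds ribosomal RNA early in assembly of the large subunit, was at 11.23, 10.92, 10.87, 10.95 and 11.15 in the QUE vehicle arrays and at 10.49, 10.40, 10.14, 10.23 and 10.10 at 100 µM. The groups did not overlap, and it fell by 0.75 (SE 0.0879, limma adjusted p = 1.28e-08). MRPS34, a small subunit protein found in mitochondria only, fell by 0.83 at 100 µM (SE 0.13). Its vehicle levels were 8.10, 7.82, 7.77, 7.97 and 8.03, and its dosed levels 7.21, 7.57, 6.98, 6.88 and 6.89, again without overlap. At 80 µM MRPS34 was not called without the dosed array numbered 4 (-0.57).

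MRPL12 fell with QUE too, by 0.70 at 100 µM (SE 0.131, limma adjusted p = 3.53e-05), but its arrays overlapped. The vehicle levels were 9.44, 9.42, 9.47, 9.56 and 9.77, and the 100 µM levels 8.64, 9.47, 8.80, 8.67 and 8.57. The array numbered 3 stayed at the vehicle level at 100 µM and also at 80 µM (9.43, against 8.69 to 8.84 in the others), and without it the change at 100 µM was -0.86. The arrays numbered 3 also stood apart over all genes, with a median level of 7.22 at 80 µM (others 7.41 to 7.53). At 100 µM that median was 7.24 (others 7.45 to 7.50). The changes of MRPL12 with MMS and QUE did not pass as different, at -0.05 (SE 0.141, limma adjusted p = 0.816). That does not show that they are equal.

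MRPL23 and MRPL54 had their largest changes below the highest dose. MRPL23, a protein beside the tunnel exit, changed by -0.67, -0.70, -0.46 and -0.57 at 30, 60, 80 and 100 µM. Its array numbered 3 lay above the vehicle range of 9.43 to 9.89 at 80 µM (10.03) and within it at 100 µM (9.86), and without the latter it was called at 100 µM (-0.74). MRPL23 was also called at 100 µM without the dosed array numbered 4 (-0.59) or the vehicle array numbered 1 (-0.65). MRPL54, a mitochondria-only large subunit protein, changed by -0.87 at 30 µM, where its levels of 8.32 to 8.49 lay well below the vehicle range of 9.14 to 9.42. Its change was -0.60 at 60 µM and -0.33 at 100 µM, where the groups overlapped and limma's adjusted p was 0.0695. The call at 60 µM was lost without the dosed arrays numbered 1 (-0.51), 5 (-0.57) or 6 (-0.55) or the vehicle array numbered 6 (-0.56).

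By the probe sets used, MRPL38, of the central protuberance, was the single member called higher in 1 chemical and lower in another. It was at 5.25, 4.81, 5.13, 4.87, 5.00 and 5.43 in the MMS vehicle arrays, near the lower end of measurable levels. At MMS 300 µM its lowest, median and highest levels were 5.52, 5.71 and 5.92, above all vehicle arrays. In QUE its levels were 5.82, 5.75, 5.24, 5.42 and 5.71 in the vehicle arrays and 5.04, 4.80, 5.45, 5.03 and 4.64 at 100 µM, with overlap through the array numbered 4. The change was -0.66 at 80 µM and -0.60 at 100 µM (SE 0.147, limma adjusted p = 0.000987). The call at 100 µM was lost without the dosed arrays numbered 3 (-0.55) or 6 (-0.51) or the vehicle arrays numbered 1 (-0.54), 3 (-0.56) or 6 (-0.57), and that at 80 µM without the dosed array numbered 4 (-0.57). In the other direction, it was called at MMS 500 µM (0.54 with all arrays) without the dosed array numbered 2 (0.65) or the vehicle array numbered 6 (0.61).

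MRPL49 was the one member called higher with QUE 100 µM. MRPS33, a small subunit protein, was just under the limit at 0.58 (SE 0.119), with all 5 dosed arrays above the vehicle arrays. MRPL10 was at 0.56 (SE 0.18) and was called without the dosed array numbered 1 (0.71) or the vehicle array numbered 4 (0.64).

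Fewest members were called with ETP. At 0.1 µM 10 members passed lower and 2 higher by the adjusted p alone, beside 8.08% and 5.9% of all genes, and with the replicate block 24 and 5, when 2281 and 2237 of the 12070 genes passed. At 0.3 µM 12 passed lower and 4 higher, beside 8.72% and 11% of all genes, and with the replicate block 26 and 9, beside 19.9% and 23.1%. MRPL49 was the single member called at 1 µM and at 3 µM, and 0 were called lower by limma, beside 5.17% higher and 3.73% lower of all genes at 1 µM and 6.25% and 6.92% at 3 µM. At 1 µM 10 members passed higher and 18 lower by the adjusted p alone (16 and 26 with the replicate block, beside 28.3% and 25% of all genes in that fit, 13 and 12 after quantile normalization over all arrays, 6 and 21 with array medians centred), beside 17.5% and 14.7% of all genes. At 3 µM 15 passed higher and 17 lower (21 and 28 with the replicate block, beside 30.2% and 29.5%, 16 and 12 after quantile normalization), beside 20.9% and 20.5% of all genes. The balance of higher and lower members with ETP therefore moved with the scaling. After MRPL49, the largest changes at 3 µM were MRPL10 at 0.51 (SE 0.0734), MRPL4 at -0.45 (SE 0.153) and MRPL1 at -0.41 (SE 0.0764).

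Some members passed the same way at all 3 highest doses. MRPL10, MRPL30, MRPL49 and MRPS21 passed higher at each, and MRPL12, MRPL13 and MRPS28 passed lower at each, 4 and 3 of 75 beside 7.01% and 6.64% of all genes. Between MMS and QUE, 8 members passed higher in both and 5 lower in both, beside 15.9% and 13.9% of all genes. A further 12 passed higher with MMS and lower with QUE and 1 the other way, beside 3.19% and 2.09%. The 3 chemicals have separate vehicle groups, so these comparisons share no arrays.

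The differences between chemicals were tested as such, by comparing the change at the highest dose of one chemical with that of another in a single limma fit of all 24 groups. Between MMS and QUE 19 members changed more positively with MMS and 1 with QUE, beside 14.5% and 13.7% of all genes. The largest difference was MRPL39, at 1.38 (SE 0.151, limma adjusted p = 2.29e-13), followed by MRPL38 at 1.13 (SE 0.226), MRPL44 at 0.93 (SE 0.161), MRPL27 at 0.92 (SE 0.129) and MRPS11 at 0.84 (SE 0.139). MRPL48 was the member with the opposite sign, at -0.60 (SE 0.111).

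Between ETP and MMS, 10 members changed more positively with MMS and 0 with ETP in limma, beside 14.9% and 15.6% of all genes (35 and 7 members by the adjusted p alone). MRPS2 led with -1.27 for ETP minus MMS (SE 0.14, limma adjusted p = 3.08e-13). It was at 9.00, 8.66, 9.01, 8.64 and 8.86 in the ETP vehicle arrays and at 8.72, 8.28, 8.26, 8.39 and 8.67 at ETP 3 µM, where the groups overlapped and the change was -0.37. MRPL4 (-0.85, SE 0.17), MRPL30 (-0.83, SE 0.113), MRPS35 (-0.78, SE 0.0994) and MRPS30 (-0.77, SE 0.144) followed. Between ETP and QUE, 5 members changed more positively with ETP and 0 with QUE in limma, beside 12.8% and 10.7% of all genes (16 and 6 members by the adjusted p alone). They were MRPL39 (0.95), MRPL27 (0.81), MRPL28 (0.75), MRPL20 (0.66) and MRPL43 (0.64). Doses of different chemicals are not matched in effect, so these differences describe the highest doses used. The percentages of all genes above are for calls at 1.5-fold, and those by the adjusted p alone are not given. The member counts by the adjusted p alone thus have no matching background here and do not set the members apart from other genes. At an unadjusted p under 0.05 in limma, 51.7% of all genes differed between ETP and MMS and 43.5% between ETP and QUE.

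**Figure D4:**
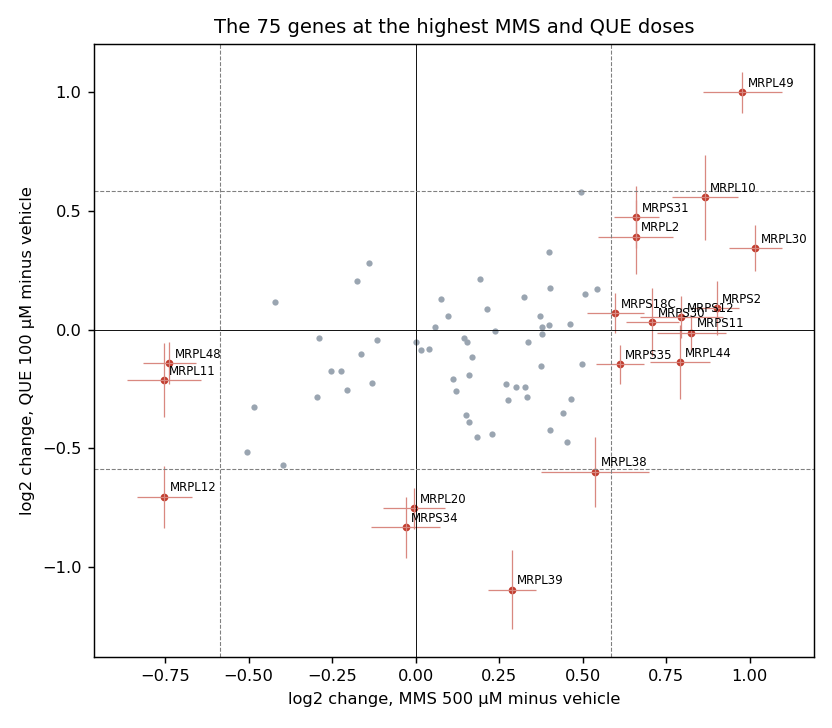
Log2 change of each of the 75 members at MMS 500 µM (x axis) against its change at QUE 100 µM (y axis), with SE as error bars. MRPL49 lies in the quadrant of rises in both chemicals (0.98 and 1.00), MRPL12 in that of falls in both (-0.75 and -0.70), and MRPL39 at 0.29 and -1.09.

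A gene on this array can have several probe sets, and 29 members had more than 1 kept, with 48 further probe sets in all. At MMS 500 µM 43 of the 48 changed with the same sign as the main probe set, which stands for the gene. The numbers were 34 at ETP 3 µM and 31 at QUE 100 µM. Among these doses both were called only at MMS 500 µM, 8 times and with the same sign. The main probe set was called and a further one not in 7 cases at MMS 500 µM and 1 at QUE 100 µM. A further probe set was called and the main one not in 3 cases at MMS 500 µM and 6 at QUE 100 µM, some with the opposite sign. MRPL30 had probe sets at 1.02, 1.01 and 0.98 with MMS 500 µM and others at 0.33 and 0.29. MRPS12 had 1.42, 1.03, 0.80 and 0.15. MRPL12 had a second, dim probe set at -0.43 with MMS and -0.32 with QUE 100 µM, and with the mean of both it was not called at QUE 30, 80 or 100 µM (-0.51 at 100 µM). With the mean of their probe sets MRPS11 (0.51) and MRPS18C (0.38) were not called at MMS 500 µM. Nor was MRPL2, which was at 0.66 by its main probe set and at 0.17 by the other, while MRPL4 was then called. Some disagreements touched members that were not called: with QUE 100 µM MRPS30 was at 0.03 by its main probe set and at -0.81 and -0.78 by the others, MRPL43 was at -0.39 and -0.28 against 0.73, and MRPS25 at -0.04 and 0.37 against 0.69. With MMS 500 µM MRPL47 was at 0.30 by its main probe set and at -0.64 by the other, and MRPS25 at -0.12 and -0.005 against 0.75. MRPL4 was at 0.40 with MMS 500 µM and -0.42 with QUE 100 µM by its main probe set. Another of its probe sets was called in opposite directions, at 0.85 and -0.62, and the last was at 0.58 and -0.64. MRPL20, MRPL39 and MRPL49 had 1 kept probe set each.

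The other genes of mitochondrial translation give these values their surroundings. With MMS 500 µM, 19 of 25 measured factors of mitoribosome assembly and ribosomal RNA modification passed higher and 2 lower, with a median change of 0.65, and 13 were called higher. Of all genes 33.9% passed higher and 27.3% lower at this dose, and 17.7% were called higher. MRM3, which methylates the large ribosomal RNA, was at 1.38 (SE 0.122), DDX28, an RNA helicase of large subunit assembly, at 1.26 (SE 0.123), the GTPase MTG2 at 1.24 (SE 0.138) and the methyltransferase NSUN4 at 1.20 (SE 0.113). Of 15 translation factors 11 passed higher and 0 lower in limma, among them GUF1 at 1.33 (SE 0.133) and TACO1, an activator of cytochrome oxidase subunit translation, at 1.00 (SE 0.102). Of 11 genes of mitochondrial DNA upkeep and transcription 8 passed higher and 0 lower, with MTERF1 at 1.53, the helicase TWNK at 1.31, TEFM at 1.11 and the RNA polymerase POLRMT at 0.62. The 19 mitochondrial aminoacyl-tRNA synthetases were split, with 7 higher and 4 lower: MARS2 rose by 1.16 and AARS2 by 0.87, while FARS2 was at -1.87 (SE 0.164) and SARS2 at -0.99 (SE 0.141).

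With QUE 100 µM, 25.8% of all genes passed higher and 24.7% lower. In the assembly list 8 passed higher and 5 lower, near those shares, with YBEY at 0.74 and FASTKD2 at -1.08 (SE 0.193). Translation factors had 5 higher and 2 lower, with MTRF1L at 0.73 and MTIF2 at -0.61, and synthetases had 1 higher and 5 lower, with SARS2 at -0.81. PTCD3, a small subunit protein outside the symbol rule, was at -0.98 (SE 0.143). Of 9 regulators of mitochondrial genes 2 passed higher and 5 lower, with the coactivator PPARGC1B at -1.08 (SE 0.244), NRF1 at -0.72 (SE 0.168) and MYC at 0.78 (SE 0.182). Of 11 mitochondrial chaperones and proteases 6 passed lower and 0 higher in limma, HSPE1 being at -0.71 (SE 0.12). With ETP 3 µM NRF1 was at -0.76 (SE 0.161), NARS2 at -0.88 (SE 0.086), MTERF3 at -0.60 and YBEY at 0.60.

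Nuclear-encoded subunits of the respiratory chain make up the complexes to which the products of the mitochondrial ribosome are added. Of 71 measured, 41 passed lower and 5 higher at MMS 500 µM, with a median change of -0.21 beside 0.24 for the members, and 9 were called lower, among them ATP5F1D at -1.02 (SE 0.0975) and UQCRC1 at -0.98 (SE 0.118). At QUE 100 µM 32 passed lower and 3 higher (NDUFB10 at -1.13, SE 0.188, and NDUFA3 at -1.13, SE 0.249), and at ETP 3 µM 28 passed higher and 2 lower. Of 69 cytosolic ribosomal protein genes none was called at any of these highest doses by limma. By the adjusted p alone 19 passed higher with ETP, 6 with MMS and 35 with QUE, and 0 lower in each. Of all genes 33.9% passed higher and 27.3% lower at MMS 500 µM, 25.8% and 24.7% at QUE 100 µM, and 20.9% and 20.5% at ETP 3 µM. At MMS 500 µM 16.9% of all genes were called lower, so the 9 respiratory chain genes called lower are below that share. No test compared these lists with the members, and the counts are descriptions.

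**Figure D5:**
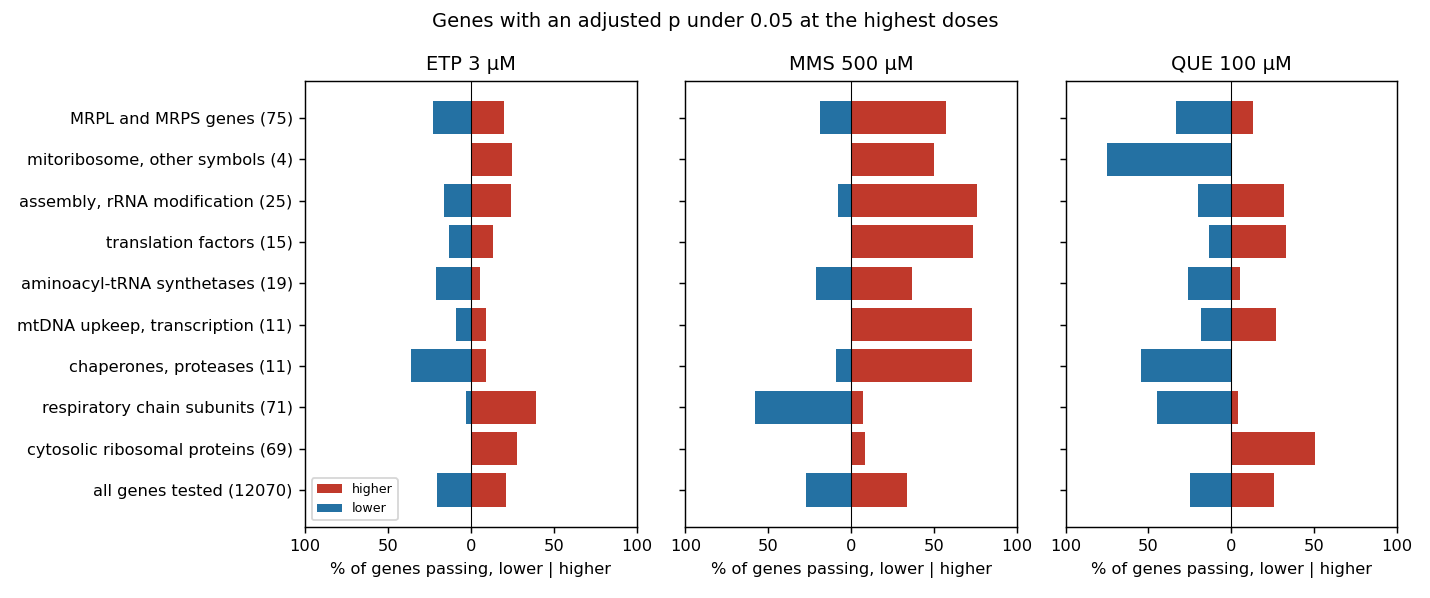
Percentage of the measured genes of each list (y axis, lists; x axis, percent) that passed higher and lower by the adjusted p alone at the highest dose of each chemical, with 1 panel per chemical. For the mitochondrial ribosomal proteins these are 43 higher and 14 lower of 75 at MMS 500 µM, and for the respiratory chain 5 higher and 41 lower of 71. For all genes they are 33.9% higher and 27.3% lower.

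The arrays numbered 2 that were left out had these levels in members called lower at QUE 100 µM, and all genes of these arrays entered the correlations by which they were left out. MRPL39, which fell with QUE, was at 9.21 in the ETP vehicle array numbered 2 and at 8.25 in the ETP 3 µM array numbered 2, while in the QUE experiment its number 2 arrays read 8.95 in the vehicle and 9.01 at 100 µM. MRPL12, MRPL20 and MRPS34 were lower at the highest dose in both number 2 pairs, with log2 differences of -0.80, -0.55 and -0.75 for ETP and -0.26, -0.14 and -0.39 for QUE. MRPL38 differed by -0.03 and -0.02 in them, so not all members shared the reading of MRPL39. With these arrays kept as labelled, 2 members rather than 5 were called lower at QUE 30 µM and 0 rather than 5 differed between ETP and QUE.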

How the data were processed

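The authors deposited log2 probe set values of 145 arrays with perfect-match probes, made with GCRMA in Partek per the submitters' processing notes; versions are not given in the sources used here. Per the labels' protocols, total RNA was treated with DNase, amplified by 3′ in vitro transcription and labelled with biotin. Whether each chemical was normalized by itself is not stated, and levels were not compared across chemicals. GCRMA pulls dim probes toward a floor, which shrinks their changes. Of 54613 probe sets, 40914 had 1 symbol in the platform annotation, 864 several and 12835 none, and 40858 of the 40914 had the symbol that RefSeq gives for their gene ID. The filter (log2 of at least 4 in at least 5 arrays) kept 27102 probe sets and 12070 genes.

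Groups, doses and replicate numbers came from the sample titles. In 3 groups a number stood on 2 arrays; 2 such pairs among the arrays used were averaged, which gave 127 replicates from 129 arrays. Each chemical was fitted by limma 3.58.1 in R 4.3.3 (lmFit, eBayes with trend, all 8 groups), and p-values were adjusted by Benjamini-Hochberg over all genes within a contrast. Differences between chemicals were contrasts of contrasts over 24 groups. Same-numbered arrays were taken as paired where every correlation of their deviations from the group means was over 0.1 (lowest 0.16 for ETP, 0.25 for MMS 1 to 300 µM and 0.15 for QUE 1 to 30 µM); the replicate block gives the paired value. The fit was tested on simulated data.

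Members named are, at each highest dose, up to 8 called members with the largest rise and fall, the member called at the lowest dose, those called in opposite directions, and MRPS18A, MRPS18B, MRPS18C, MRPL12, MRPS12, MRPL3 and MRPL45, with up to 4 called genes for each other list. Others (MRPS33 and the members of single comparisons) were chosen after their values were seen. The members, lists and rules were chosen with earlier results of these data known. Alternatives were keeping the arrays numbered 2, the replicate block, quantile normalization over all arrays, centred array medians, other filters, the mean of probe sets, a fit of dose and vehicle alone, no trend, single repeat arrays, leaving out each replicate and no limit on fold. No array gives a read depth; the number of arrays sets the precision. Python 3.11.15, numpy 2.4.6, pandas 2.3.3 and matplotlib 3.10.9 made tables and figures, and the R package data.table (version 1.17.8) read the files.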

Additional observations from a re-analysis of the deposited data

Results flagged for a closer look

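The median over the 75 members and the levels of 6 members were looked at in the groups of 5 or 6 arrays for a single array standing far from the rest, in 24 and 36 groups, and about 1 in 20 such groups is flagged by chance. In 1 of the 24 groups the median over members stood apart: MMS 30 µM number 5 was at 9.069 on the log2 scale, below the other arrays of its group. MRPL12 stood above the other arrays of its group at ETP 3 µM number 6, at 9.792, and at QUE 100 µM number 3, at 9.47. MRPL30 stood above the others at 10.275 in the ETP vehicle array number 4 and at 10.71 in MMS 500 µM number 5. In 4 of the 36 groups a member was thus apart.

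The change of some members at the highest doses differed between chemicals by a test of the difference itself in limma. For ETP minus MMS 10 members were lower, beside 14.9% of all genes. For ETP minus QUE 5 were higher, beside 12.8%, and for MMS minus QUE 19 were higher, beside 14.5%. The share of members was thus below that of all genes for ETP minus MMS and for ETP minus QUE. Only for MMS minus QUE was it above.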

How the results depend on the processing

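With no limit on fold, the counts were 15 higher at ETP 3 µM, 35 at MMS 300 µM and 43 at MMS 500 µM, 14 lower at MMS 500 µM, 33 lower at QUE 30 µM, 26 lower at QUE 60 µM and 10 higher and 25 lower at QUE 100 µM; between chemicals they were 35 (ETP minus MMS, lower), 16 (ETP minus QUE, higher) and 38 (MMS minus QUE, higher). At an unadjusted p under 0.05 in limma, 51.7%, 43.5% and 48.4% of all genes differed in the 3 contrasts between chemicals, in either direction. That limit is looser than the one of the member counts, so the shares are not a matching background for them. With the mean of probe sets 2 members were called at MMS 300 µM. With the arrays numbered 2 kept 2 were called lower at QUE 30 µM, 0 differed between ETP and QUE and 6 passed higher at ETP 3 µM. Centred array medians gave 2 called higher at QUE 100 µM. The 10 members that passed lower at ETP 0.1 µM became 4 with the arrays numbered 2 kept, 4 after quantile normalization, 4 with no filter, 2 with dose and vehicle fitted alone and 24 with the replicate block, which also gave 28 lower at ETP 3 µM. Beyond the blocked counts printed beside the results, the replicate block moved the members that passed higher at QUE 60 µM from 6 to 10 (numbers did not pair there), and for ETP minus MMS it called 11 lower and 1 higher. Some smaller counts moved by over 1.5 times too. With the arrays numbered 2 kept, 3 rather than 5 were called lower at QUE 80 µM, 5 rather than 10 passed higher at ETP 1 µM, 0 rather than 2 at ETP 0.1 µM, and 0 rather than 16 and 6 passed for ETP minus QUE. With dose and vehicle fitted alone, 5 and 10 passed higher and lower at ETP 1 µM, 5 and 13 at QUE 80 µM, 4 lower at ETP 0.3 µM and 3 lower at QUE 10 µM. Quantile normalization gave 7 lower at ETP 0.3 µM.

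Leaving out single replicates gave 1 called higher in every case at ETP 3 µM, 2 to 4 at MMS 300 µM, 10 to 13 higher and in every case 3 lower at MMS 500 µM, 3 to 5 lower at QUE 30 µM, 5 to 7 lower at QUE 60 µM, and 1 to 3 higher and 4 to 6 lower at QUE 100 µM. By the adjusted p alone it gave 12 to 16 higher and 12 to 20 lower at ETP 3 µM, 32 to 36 higher at MMS 300 µM, 40 to 45 higher and 12 to 14 lower at MMS 500 µM, 24 to 31 lower at QUE 30 µM, and 6 to 10 higher and 19 to 27 lower at QUE 100 µM. Of 1790 values of single members under an alternative, 1740 kept the call or stayed without one, 43 lost the call and 7 gained it. In 0 cases did a called change reverse or a call appear in the opposite direction. The direction of changes called in neither fit was not compared.

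Members whose probe sets are dim have changes of uncertain size, and 5 or 6 arrays a group limit what can be seen under 1.5-fold. The meaning of 2 title suffixes and whether replicates are separate cultures are not given in the sources used here.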

Other observations

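Of the 67 members with a promoter window, 20 start within 1000 bases of a protein-coding gene on the other strand that is read away from them, and all 20 partners were measured. Such pairs share the sequence between their starts, and they were looked at after the values were seen, as a description. At MMS 500 µM 6 of these members and 7 partners were called, 1 pair in the same direction and 1 in opposite directions. Of all genes 34.6% were called at that dose, so 6 and 7 of 20 are near the background. MRPS18C (0.60) and the DNA helicase gene HELQ (0.65) were the pair that rose together. MRPS12 (0.80) and the mitochondrial seryl-tRNA synthetase gene SARS2 (-0.99) moved apart, and SARS2 was also called lower at QUE 100 µM (-0.81), where MRPS12 was at 0.05. MRPL46 and MRPS11, a pair of 2 members, were at 0.38 and 0.82 with MMS and at 0.01 and -0.01 with QUE.

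MRPL49 faces FAU, which encodes a cytosolic ribosomal protein. FAU was at 0.12 with ETP 3 µM, 0.22 with MMS 500 µM and 0.15 with QUE 100 µM, where MRPL49 was at 0.93, 0.98 and 1.00. MRPL51 was at 0.15 with MMS 500 µM while its partner NCAPD2, a condensin subunit, was at -1.83.

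Members with the E-box motif had a median change of 0.50 at MMS 500 µM (9 members) against 0.19 in the 58 without it. With the CCAAT box the medians were 0.35 (22 members) and 0.15 (45 members), with the YY1 motif 0.32 (21) and 0.20 (46), with the ETS motif 0.19 (29) and 0.27 (38), and with the NRF1 motif 0.28 (6) and 0.27 (61). At QUE 100 µM the medians with and without were 0.07 and -0.09 for the E-box, -0.13 and -0.08 for the CCAAT box, -0.08 and -0.09 for YY1, -0.05 and -0.13 for ETS and -0.07 and -0.08 for NRF1. These medians are descriptions and no test was run on them.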
